A study of Mus musculus with 12 samples.

Results

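The cytosolic and mitochondrial heat shock genes described here were Hspa1a, Hspa1b, Hspa8, Hspa4l, Hsph1, Dnajb1, Hspb1, Hspd1, Hspe1 and Bag3. These 10 genes were taken by name from the 54838 genes of a bulk RNA-seq count table of mouse ileum, the last part of the small intestine, and all 10 passed the filter on low counts that left 15938 genes to test. Female C57BL/6J mice drank normal water or water with 25 mM ZnSO4, a zinc salt, for 7 days. They were then injected i.p. with PBS (phosphate-buffered saline) or with 200 µg Dex (dexamethasone, a synthetic glucocorticoid that activates the glucocorticoid receptor, GR) in PBS, and the whole ileum was washed and stored for RNA extraction 2 h later. The 4 groups, of 3 mice each, were water + PBS, water + Dex, ZnSO4 + PBS and ZnSO4 + Dex, so that every mouse was injected and no group was left unhandled.

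Heat shock proteins are chaperones that hold, fold and unfold other proteins. HSP70 proteins bind exposed stretches of a client protein in a cycle driven by ATP, J-domain proteins such as Dnajb1 start that cycle, and proteins of the HSP110 family and BAG domain proteins release ADP and client. In the matrix of the mitochondrion the folding is done by a chamber of Hspd1 (HSP60) closed by a lid of Hspe1 (HSP10). Many of these genes are switched on by heat shock factor 1 (HSF1), which binds heat shock elements, arrays of inverted GAA repeats, and the GR itself is folded and held ready for ligand by HSP70, HSP90 and their partners.

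The windows around the start sites of these genes are shown first, because HSF1 binds heat shock elements and switches on many genes of this family. RefSeq windows on GRCm38.p6, of 300 bases with 250 before the start site, were at hand for 9 of the 10 genes. A heat shock element was searched as GAANNTTCNNGAA and as TTCNNGAANNTTC, which is its reverse complement, and matches of both could overlap. It was present in windows of 3 members (Hspd1, Hspe1 and Hsph1), against 0.603% of the 32851 windows of all genes and 179 of their 27025 gene symbols. Hspd1 and Hspe1 lie head to head on chromosome 1. The Hspe1 window (chr1:55087898-55088197) and 1 of the 2 Hspd1 windows (chr1:55087883-55088182) cover mostly the same bases on opposite strands. The same 2 overlapping matches, in the shared part, were found for both genes, so the count of 3 members includes these bases for each. The 30 bases printed around these matches are chr1:55088053-55088082 on the plus strand, at positions -95 to -66 from the Hspe1 start site. An exon of an Hspd1 transcript covers this stretch, since the annotated start sites of Hspd1 differ. In Hsph1 the match followed the start site, within the transcribed part of the gene, at chr5:149636279-149636308 on the minus strand. Capitals mark the bases of the matches.

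Hspe1 and Hspd1: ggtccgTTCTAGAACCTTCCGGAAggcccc
Hsph1: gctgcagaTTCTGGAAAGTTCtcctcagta

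When 1 mismatch was allowed, a looser search added after the exact one, 6 members had a match against 7.22% of all windows and 2202 of the 27025 gene symbols. The 3 added were Hspa1a, Hspa1b and Hspb1, and no match was found in the windows of Hspa4l, Dnajb1 and Bag3. The windows of Hspa1a and Hspa1b are printed because they show how alike these neighbouring genes are. They were identical at 296 of 300 positions and at all 60 of the positions shown, so the count of 6 members includes the same matched sequence for each. Both stretches lay outside annotated exons, at positions -135 to -76 from the start sites, at chr17:34972232-34972291 for Hspa1a and chr17:34959314-34959373 for Hspa1b, both on the minus strand. Capitals mark the pair of overlapping matches with 1 mismatch.

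Hspa1a: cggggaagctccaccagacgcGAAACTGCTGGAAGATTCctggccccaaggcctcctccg
Hspa1b: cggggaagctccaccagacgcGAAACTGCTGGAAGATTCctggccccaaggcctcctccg

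The palindromic GR element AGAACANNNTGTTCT was in none of the 12 member windows, exactly or with 1 mismatch, while 0.00913% and 0.164% of all windows held it. These matches are letters in a window and no binding was measured.

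Each library held between 10760132 and 11827487 counts (median 11388606). No marker of enterocytes, Paneth cells or goblet cells was at 0 in any library. Summed B cell markers ranged from 151 to 8283 normalised counts over the 12 libraries, and summed T cell markers were 515 to 1308 in the 6 ZnSO4 libraries and 1024 to 2171 in the 6 water libraries. In such bulk tissue, fewer cells of a type and less RNA per cell cannot be told apart. 1 library stood apart for the genes described here, water + PBS replicate 3. It had the highest value of all 12 libraries for 6 of the 10 members (Hspa1a, Hspa1b, Hspa8, Hspa4l, Hsph1 and Bag3), and the LFCs that moved most without it are given with and without it.

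The levels of the 10 genes spanned a wide range. On a length-scaled level, in which each count was divided by the exonic length of the gene and the library was then scaled to a fixed total as in TPM, the constitutive HSP70 Hspa8 was highest at 335.7 ± 75.8 (SD over the 12 libraries). Hspd1 followed at 236.3 ± 31.4 and its lid Hspe1 at 97.2 ± 11.7, and in all 12 libraries Hspa8 lay above Hspd1, Hspd1 above Hspe1 and Hspe1 above Dnajb1. Dnajb1 (33.2 ± 3.84), the HSP70 co-chaperone Bag3 (27.2 ± 3.19), Hsph1 (25.8 ± 11.5) and the small heat shock protein Hspb1 (24 ± 7.47) came next. Bag3 was above Hsph1 in 8 libraries and Hsph1 above Hspb1 in 6, so those neighbours in the order did not differ beyond their spread. Hspa4l, an HSP110 protein, had 13.3 ± 2.69. The classic inducible HSP70 genes were lowest, Hspa1b at 6.26 ± 4.53 and Hspa1a at 1.61 ± 0.592.

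Several of these levels are lower bounds, because reads that mapped to more than 1 place had been excluded from the counts. Of the 31-base words in the exons, 68% of Hspa1b (chr17:34956436-34959238) and 65.4% of Hspa1a (chr17:34969190-34972156) also occurred in other genes, mostly in each other. The share was 52.3% for Hspb1, 50.1% for Hspd1, 43.5% for Hspa8 and 24.8% for Hspe1, which have processed pseudogenes, and it was under 1% for Hspa4l, Hsph1, Dnajb1 and Bag3. The counts of Hspa1a and Hspa1b therefore rest on the smaller part of each gene that tells it from its neighbour, and the levels of these genes and of those with pseudogenes are uncertain. Divided by the length of sequence found in no other gene, Hspb1 moved from seventh to rank 4 among the members and Hspa1b from rank 9 to 8, while Hspa8, Hspd1, Hspe1 and Hspa1a kept their ranks.

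**Figure D1:**
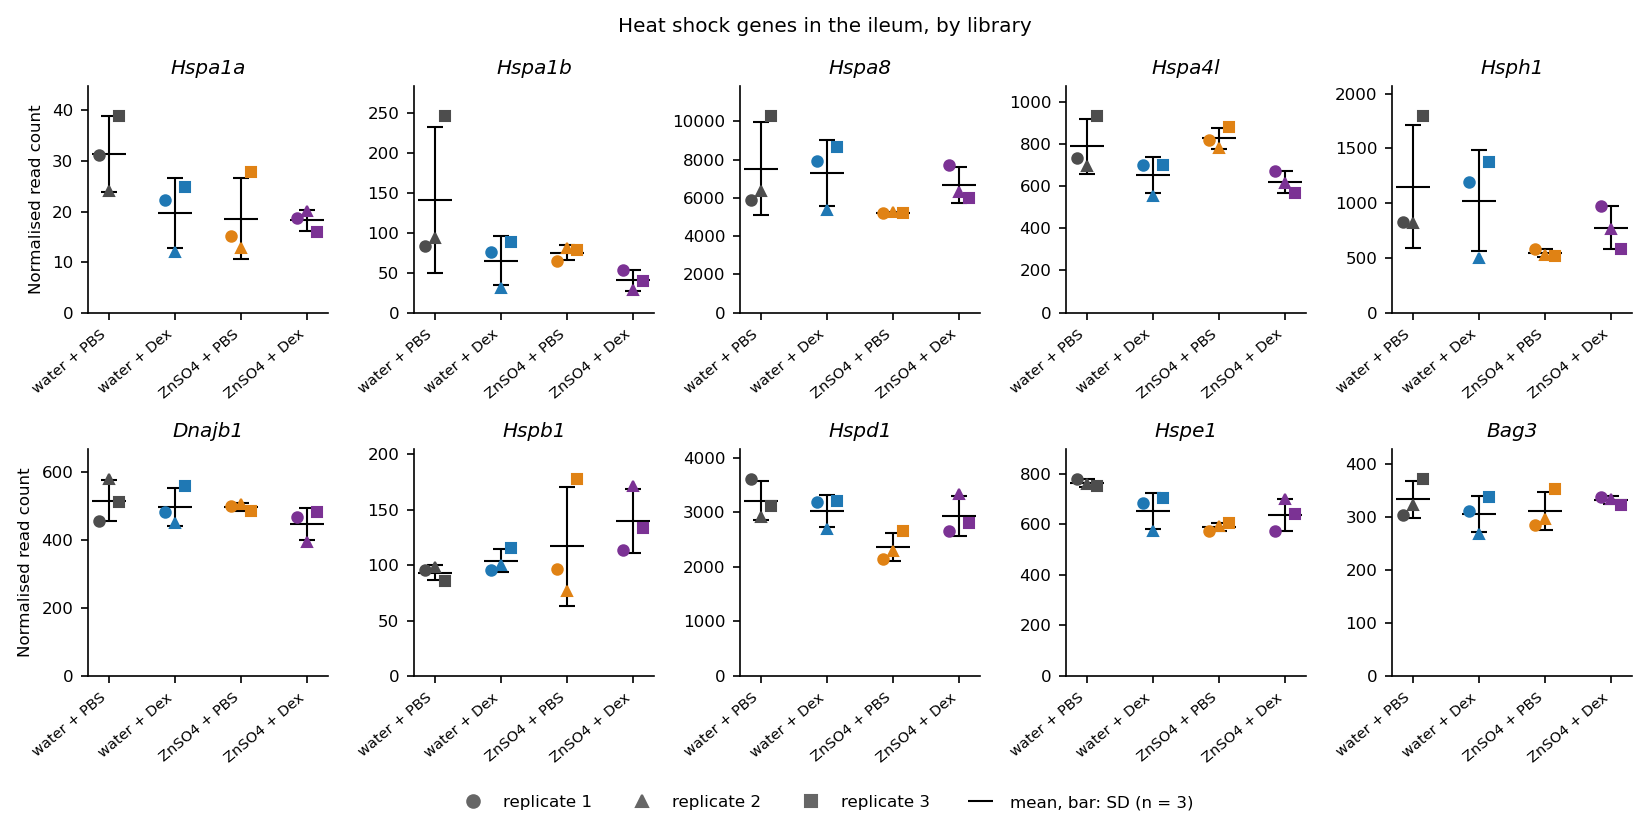
Normalised read counts (y axis, linear from 0) of the 10 heat shock genes in the 12 libraries, by group (x axis); symbols are replicates 1 to 3, the long dash is the group mean and the bar the SD (n = 3). Hspa1b, Hspa8 and Hsph1 were far higher in water + PBS replicate 3 than in the other water + PBS libraries, while the 3 ZnSO4 + PBS libraries of Hspa8 lay between 5193 and 5274.

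After a week of ZnSO4 in the drinking water without Dex, Hspe1 fell and was the 1 member of 10 that passed the test (edgeR quasi-likelihood, Benjamini-Hochberg adjusted p under 0.05), where 4.66% of all tested genes passed. The normalised counts of Hspe1 were 779.2, 757.5 and 749.7 in water + PBS and 571.4, 593.0 and 603.9 in ZnSO4 + PBS. All 3 ZnSO4 libraries lay below all 3 water libraries, and the fall was larger than the spread within either group (762.1 ± 15.3 against 589.4 ± 16.6, SD, n = 3). The LFC was -0.37 (SE 0.09, adjusted p = 0.043). With the replicate number as a block the LFC stayed at -0.37 but the adjusted p was 0.075, and 9 of the 12 fits that left out 1 library gave an adjusted p above 0.05, at most 0.14, with LFCs between -0.39 and -0.34.

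Hspd1, the other component of the mitochondrial chamber, had 3614, 2912 and 3115 normalised counts in water + PBS and 2153, 2288 and 2651 in ZnSO4 + PBS. Again no ZnSO4 library reached a water library, but the LFC of -0.44 (SE 0.12) did not pass (adjusted p = 0.063). The markers of other cells in these libraries are given beside this result. The 10 proliferation markers all had LFCs below 0 with ZnSO4 in PBS mice (median -0.22, 0 called by edgeR or DESeq2, 3 at an unadjusted p of 0.05), and their summed levels overlapped, at 7808 to 10022 normalised counts in water + PBS and 6821 to 8539 in ZnSO4 + PBS. In the interaction all 10 were above 0 (median 0.31, 0 called by edgeR or DESeq2), the direction that Hspe1 and Hspd1 had there. The 7 Paneth cell markers had the same directions. All 7 were below 0 with ZnSO4 in PBS mice (median -0.29, 0 called by edgeR, 1 by DESeq2), and 0 of 7 in the interaction (median 0.27). All 10 T cell markers were also below 0 with ZnSO4 in PBS mice (median -0.71, 1 called by edgeR, 3 by DESeq2). So were all 10 B cell markers (median -0.54) and all 8 macrophage markers (median -0.30), with 0 called. Summed goblet cell markers were 149502 to 151723 in water + PBS and 165842 to 201344 in ZnSO4 + PBS, without overlap, and 1 of 7, Muc2, passed (LFC 0.88, adjusted p = 0.033). Of the smooth muscle, enterocyte, and neuron and glia markers, 0 of 10, 6 of 10 and 1 of 8 were below 0 with ZnSO4 in PBS mice. In the interaction 9 of 10 T cell, 10 of 10 B cell and 2 of 8 macrophage markers were below 0. No proliferation or goblet cell marker was at 0 in any library. The part of any of these markers in the result on Hspe1 was not tested.

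Hspd1 and Hspe1 share a short stretch of exon on opposite strands, 7.6% of the exonic bases of Hspe1 and 4.24% of those of Hspd1. The library kit keeps the strand, but the strand setting of the counting is not given in the sources used here.

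The cytosolic HSP70 and HSP110 genes pointed down as well in the comparison of ZnSO4 + PBS with water + PBS, but with much larger spread. Hspa8 had 5907, 6352 and 10305 normalised counts in water + PBS against 5215, 5274 and 5193 in ZnSO4 + PBS, an LFC of -0.52 (SE 0.22, adjusted p = 0.2). Hsph1 had 830.8, 819.7 and 1799 in water + PBS against 581.7, 525.3 and 512.2 in ZnSO4 + PBS, an LFC of -1.09 (SE 0.37, adjusted p = 0.13). In both genes the ZnSO4 libraries lay close together below all the water libraries, and the high water library was replicate 3. Without it the LFC of Hspa8 was -0.23 and that of Hsph1 -0.61, with adjusted p of 0.55 and 0.37. Hspa1b had 83.7, 93.3 and 247.0 in water + PBS and 64.1, 81.5 and 78.7 in ZnSO4 + PBS. Its LFC of -0.92 (SE 0.44, adjusted p = 0.28) became -0.24 without water + PBS replicate 3. Hspa1a, with 31.1, 24.1 and 39 counts against 15.1, 12.8 and 27.8, had overlapping groups and an LFC of -0.76 (SE 0.34, adjusted p = 0.24).

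The remaining 4 members showed small differences with ZnSO4 alone. The LFC was 0.07 (SE 0.13) for Hspa4l, -0.05 (SE 0.11) for Dnajb1 and -0.10 (SE 0.11) for Bag3, with 95% intervals that lay within -0.35 and 0.34. Hspb1 had 95.3, 98.3 and 85.5 in water + PBS and 96.2, 76.9 and 177.8 in ZnSO4 + PBS, an LFC of 0.33 (SE 0.27). Its high library, ZnSO4 + PBS replicate 3, also held the most smooth muscle marker counts of the 12 libraries, 42519 against 24498 and 25328 in the other ZnSO4 + PBS libraries, and without it the LFC of Hspb1 was -0.10. Over the 10 members, the median LFC of ZnSO4 in PBS mice was -0.41 and 8 were below 0, against a median of -0.013 and 52% below 0 over all tested genes. This median includes water + PBS replicate 3, without which the LFCs of Hspa8, Hsph1 and Hspa1b were nearer 0, as given above. In 5 of the 10 the libraries of the groups did not overlap, all with lower ZnSO4 values, beside 25.3% of all tested genes whose groups did not overlap.

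**Figure D2:**
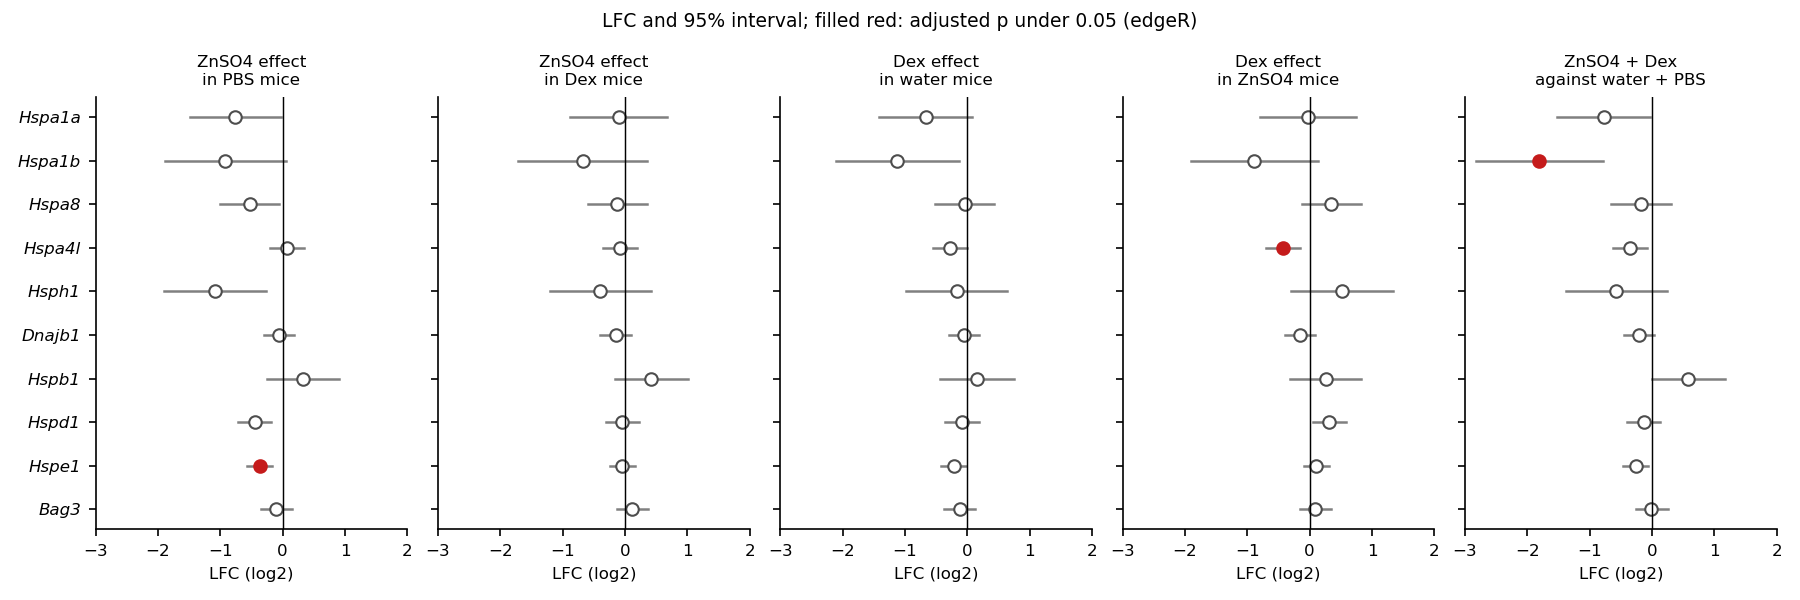
LFC on the log2 scale (x axis) of each heat shock gene (y axis) in 5 comparisons of groups; points are edgeR estimates, lines their 95% intervals, and filled points passed an adjusted p of 0.05. The passing points were Hspe1 for ZnSO4 in PBS mice, Hspa4l for Dex in ZnSO4 mice and Hspa1b for ZnSO4 + Dex against water + PBS.

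In mice that also received Dex, ZnSO4 changed none of the 10 members (edgeR, 0 of 10 also at an unadjusted p of 0.05, and 0 by DESeq2), where 4.37% of all tested genes passed. Groups overlapped in all 10, while they did not in 25.9% of all tested genes. Hspe1 had 685.7, 572.4 and 702.4 normalised counts in water + Dex and 571.3, 700.4 and 639.7 in ZnSO4 + Dex, an LFC of -0.04 with a 95% interval from -0.24 to 0.16. Hspd1 had 3193, 2695 and 3210 against 2657, 3341 and 2800, an LFC of -0.05 with an interval from -0.31 to 0.22. The 2 genes of the mitochondrial chamber thus lay at similar levels with and without ZnSO4 once Dex had been given, and differences within these intervals could not be detected. The most negative LFCs were those of Hspa1b (-0.68, interval -1.72 to 0.35) and Hsph1 (-0.40, interval -1.21 to 0.41), and the highest was that of Hspb1 (0.42, interval -0.16 to 1.01). Of the others, Dnajb1 had -0.15, Hspa8 -0.13, Hspa1a -0.10, Hspa4l -0.08 and Bag3 0.12.

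Dex in mice on normal water changed none of the 10 members in the edgeR and DESeq2 fits made here (3 of 10 at an unadjusted p of 0.05), where 9.93% of all tested genes passed. The 3 water + Dex values of Hspe1, given above, lay below those of water + PBS with an LFC of -0.22 (SE 0.09) that did not pass (adjusted p = 0.17), and it was the 1 member whose groups did not overlap (29.7% of all tested genes). Hspa1b had 75.8, 30.2 and 88.6 normalised counts in water + Dex, an LFC of -1.12 (SE 0.45, adjusted p = 0.16) that was -0.45 without water + PBS replicate 3. The paper's own DESeq2 test of these mice, by contrast, listed Hspa1b as lowered by Dex alone at an FDR just below 0.05, with an LFC of similar size. Hspa1a had 22.3, 11.9 and 24.9, an LFC of -0.67 (SE 0.34). Hspa4l had 700.2, 551.9 and 701.3 against 735.4, 694.3 and 935.0 in water + PBS, an LFC of -0.28 (SE 0.13, adjusted p = 0.22) that was -0.13 (adjusted p = 0.57) without water + PBS replicate 3. Hspa8 and Hsph1 varied among the Dex mice, with 7913, 5365 and 8640 for Hspa8 and 1190, 499.0 and 1379 for Hsph1, replicate 2 being low for both. Their LFCs of -0.04 and -0.17 turned positive, 0.25 and 0.31, without water + PBS replicate 3. The LFCs of Hspd1 (-0.08), Dnajb1 (-0.06), Bag3 (-0.12) and Hspb1 (0.16) all had intervals that included 0.

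Dex in mice on ZnSO4 lowered Hspa4l, the 1 member of 10 that passed, where 13.7% of all tested genes did. Its normalised counts were 820.3, 780.6 and 879.9 in ZnSO4 + PBS and 671.9, 613.9 and 567.1 in ZnSO4 + Dex, so that the groups stood apart (826.9 ± 50 against 617.6 ± 52.5, SD, n = 3). The LFC was -0.42 (SE 0.13, adjusted p = 0.046), and 7 of the 12 fits that left out 1 library gave an adjusted p above 0.05, the highest being 0.13. Averaged over water and ZnSO4 mice, Dex lowered Hspa4l with an LFC of -0.35 (SE 0.09, adjusted p = 0.015), and this call stood in each of the 12 fits that left out 1 library, with LFCs from -0.39 to -0.28 and adjusted p from 0.011 to 0.038. Hspa4l is best known from the testis and serves HSP70 as an exchange factor.

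Other members pointed up after Dex in ZnSO4 mice without passing. Hspd1, at 2153, 2288 and 2651 in ZnSO4 + PBS, was at 2657, 3341 and 2800 in ZnSO4 + Dex, an LFC of 0.31 (SE 0.12, adjusted p = 0.12) with no overlap of the libraries. Hspa8 went from between 5193 and 5274 to 7739, 6326 and 5978, an LFC of 0.35 (SE 0.22, adjusted p = 0.34), also without overlap. Hsph1 had 975.7, 766.7 and 579.9 in ZnSO4 + Dex, an LFC of 0.52 (SE 0.37, adjusted p = 0.43). Hspe1 (LFC 0.11, SE 0.09), Bag3 (0.09, SE 0.11) and Hspa1a (-0.02, SE 0.35) had LFCs near 0, and Dnajb1 had an LFC of -0.15 (SE 0.11). Hspa1b again had a negative LFC, -0.89 (SE 0.47, adjusted p = 0.26), with 53.9, 27.9 and 39.5 counts in ZnSO4 + Dex. Hspb1 had 114.1, 171.0 and 133.5, an LFC of 0.26 (SE 0.26) that passed, at 0.69 (adjusted p = 0.042), without ZnSO4 + PBS replicate 3. Summed smooth muscle markers in the ZnSO4 + Dex libraries were 33396, 41367 and 28458 for replicates 1, 2 and 3, the same order as the Hspb1 values for the highest library but not for the lowest, and their part in the result was not tested. In 5 of the 10 members the groups did not overlap, 3 of them lower and 2 higher after Dex, beside 29.1% of all tested genes.

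Whether ZnSO4 and Dex acted on these genes independently was asked with the interaction of the factors. None of the 10 members passed, and no gene of the 15938 did by edgeR, with 794 genes and 2 members at an unadjusted p of 0.05 (0 passed is 0% of all tested genes). DESeq2 called 6 genes, none of them a member. The 2 members were Hspe1, with an interaction LFC of 0.33 (SE 0.13, unadjusted p = 0.025, adjusted p = 0.95), and Hspd1, with 0.39 (SE 0.17, unadjusted p = 0.041, adjusted p = 0.95). A difference between the ZnSO4 effect on these 2 genes in PBS mice and in Dex mice was therefore not shown.

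Mice given both agents were set against mice given neither, a comparison that shares its libraries with those above. Hspa1b fell, the 1 member of 10 that passed, where 23.3% of all tested genes did. It had 83.7, 93.3 and 247.0 normalised counts in water + PBS and 53.9, 27.9 and 39.5 in ZnSO4 + Dex, and no library of the groups overlapped (141.3 ± 91.7 against 40.4 ± 13.1, SD, n = 3). The LFC was -1.81 (SE 0.46, adjusted p = 0.016), the 1 member LFC beyond the cut-off of 0.8 used by the study among those that passed, where 9.66% of all tested genes passed both. Without water + PBS replicate 3 the LFC was -1.13 (adjusted p = 0.065), and without ZnSO4 + Dex replicate 2 it was -1.60 (adjusted p = 0.057). The paper's DESeq2 test of the same groups, with all libraries, also gave lower Hspa1b, with an LFC of similar size and a smaller FDR. Averaged over water and ZnSO4 mice, the Dex effect on Hspa1b was an LFC of -1.01 (SE 0.32, adjusted p = 0.045), and 2 of the 10 members passed that test, Hspa1b and Hspa4l, where 21.5% of all tested genes did. Hspa1b was the 1 member past the cut-off of 0.8 as well, where 6.31% of all tested genes were. This average was -0.67 (adjusted p = 0.1) without water + PBS replicate 3, and the call held in 3 of the 12 fits that left out 1 library.

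Against water + PBS, the neighbour Hspa1a had an LFC of -0.77 (SE 0.34, adjusted p = 0.12) in ZnSO4 + Dex, with 18.7, 20.2 and 16 counts against 31.1, 24.1 and 39. Hspe1 (LFC -0.26, adjusted p = 0.063) and Hspa4l (LFC -0.35, adjusted p = 0.065) lay below all water + PBS libraries and missed the threshold, and without water + PBS replicate 3 the LFC of Hspa4l was -0.21 (adjusted p = 0.24). Hspb1 was above all of them (LFC 0.58, adjusted p = 0.14), and Hsph1 had an LFC of -0.57 (adjusted p = 0.29) that was -0.093 (adjusted p = 0.88) without water + PBS replicate 3. In 5 of the 10 members the groups did not overlap, beside 36.9% of all tested genes. Averaged over PBS and Dex mice, ZnSO4 changed none of the members by edgeR, where 12.8% of all tested genes passed (4 of 10 members at an unadjusted p of 0.05, and 2 by DESeq2). The 4 were Hspe1 (LFC -0.20, adjusted p = 0.061), Hspd1 (-0.25, adjusted p = 0.083), Hsph1 (-0.75, adjusted p = 0.085) and Hspa1b (-0.80, adjusted p = 0.13), and the 2 called by DESeq2 were Hspd1 and Hspe1. Without water + PBS replicate 3 the averaged ZnSO4 LFC was -0.46 (adjusted p = 0.28) for Hspa1b and -0.51 (adjusted p = 0.18) for Hsph1.

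**Figure D3:**
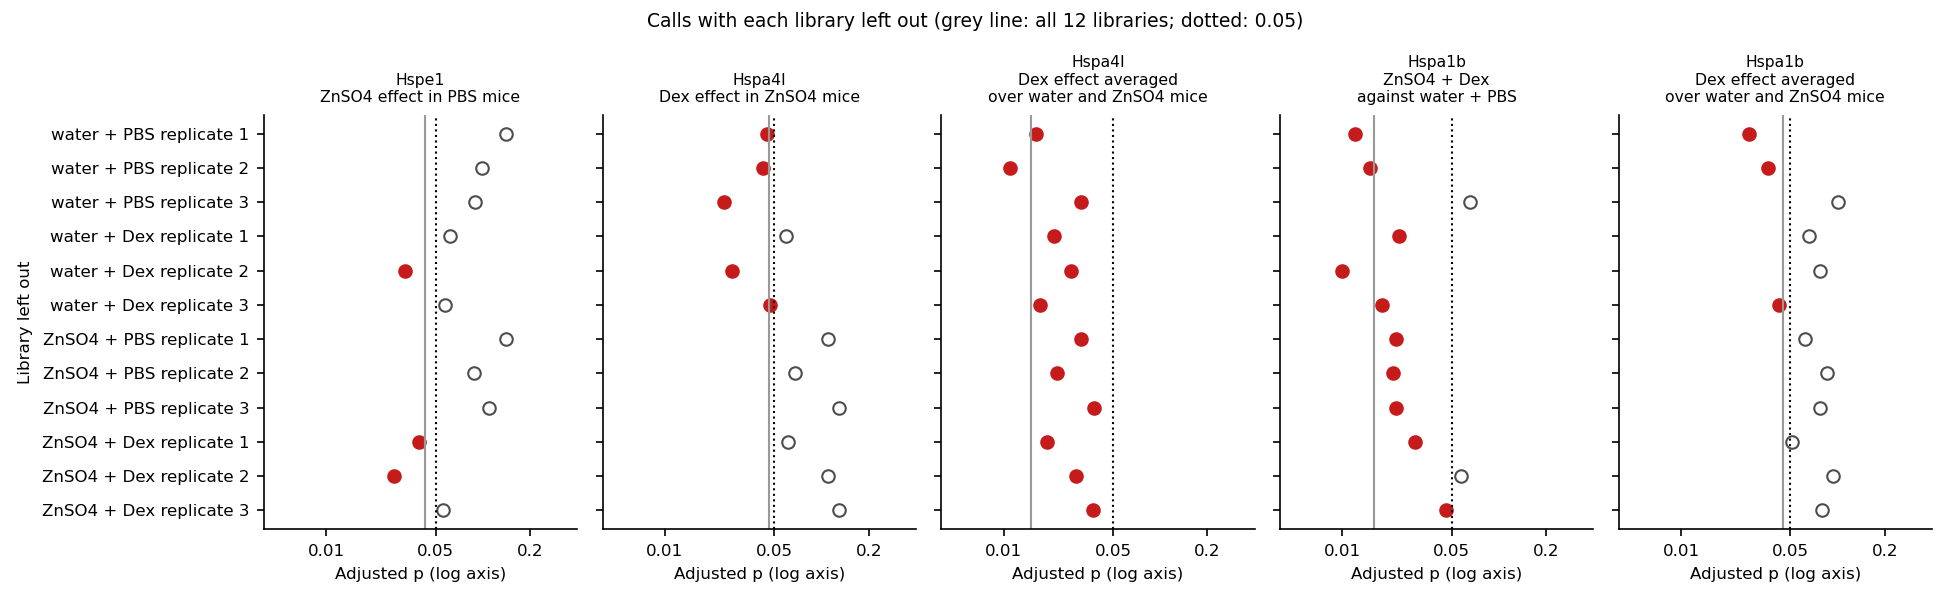
Adjusted p (x axis, log) of the 5 calls among the heat shock genes when each library (y axis) was left out of the fit; filled points are below 0.05, the dotted line is 0.05 and the grey line the value with all 12 libraries. The averaged Dex effect on Hspa4l stayed below 0.05 in all 12 fits, and Hspe1 did so in 3.

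Within groups, Hspa8, Hspa1b, Hspa4l and Hsph1 varied together from mouse to mouse, and so did the mitochondrial pair Hspd1 and Hspe1. Over the 12 libraries, log2 CPM of Hspa8 and Hsph1 had Pearson r = 0.97 (permutation p = 1.0e-05, the smallest that the 100000 permutations can give; adjusted over 45 pairs of members, 4.5e-04) and Spearman rho = 0.88 (permutation p = 3.6e-04, adjusted 0.016). Without the 2 libraries farthest from the median of Hspa8, r was 0.93, and after group means were taken out it was 0.97. Hspd1 and Hspe1 had r = 0.82 (permutation p = 0.001, adjusted 0.017) and rho = 0.80 (permutation p = 0.0028, adjusted 0.06), with r = 0.75 without the 2 farthest libraries and 0.80 within groups. Hspa1b and Hspa4l had r = 0.82 (permutation p = 0.0011, adjusted 0.017) and rho = 0.67 (permutation p = 0.021, adjusted 0.13), with r = 0.74 without the 2 farthest libraries and 0.87 within groups. These were the 3 of 45 pairs whose adjusted p for Pearson r was below 0.05. The permutations ran over all 12 libraries without regard to group, so these p-values do not separate shared group differences from variation within groups.

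Group differences hid part of this pattern. Hspa8 and Hspa4l had r = 0.20 over the 12 libraries (permutation p = 0.54) but 0.93 after group means were taken out, since Hspa4l was high and Hspa8 low in ZnSO4 + PBS. Likewise Hspa1b and Hspa8 had r = 0.55 over the libraries (permutation p = 0.064) and 0.96 within groups, and Hspa4l and Hsph1 had 0.29 (permutation p = 0.36) and 0.93. Over the libraries without the 2 farthest from the median of the gene named first, r was -0.28, 0.24 and -0.31 for these 3 pairs. Within groups and without water + PBS replicate 3, a check added after the data were seen, r was 0.87, 0.92 and 0.90. Not all pairs followed their class. Hspa1a had a within-group r of 0.60 with Hspa1b and 0.61 with Hspa8, lower than its 0.69 with the mitochondrial Hspd1 and its 0.87 with Bag3. With the HSP110 genes Hspa4l and Hsph1 its within-group r was 0.82 and 0.67. The correlations of Hspa1a rest on 11 to 41 raw counts per library and are uncertain. Hspa8 had 0.76 with Bag3, 0.36 with Dnajb1 and 0.06 with Hspd1. These within-group values are a description of 12 libraries, in which water + PBS replicate 3 was the highest library for 6 of the 10 members and water + Dex replicate 2 the lowest for 4 (Hspa1a, Hspa4l, Hsph1 and Bag3).

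**Figure D4:**
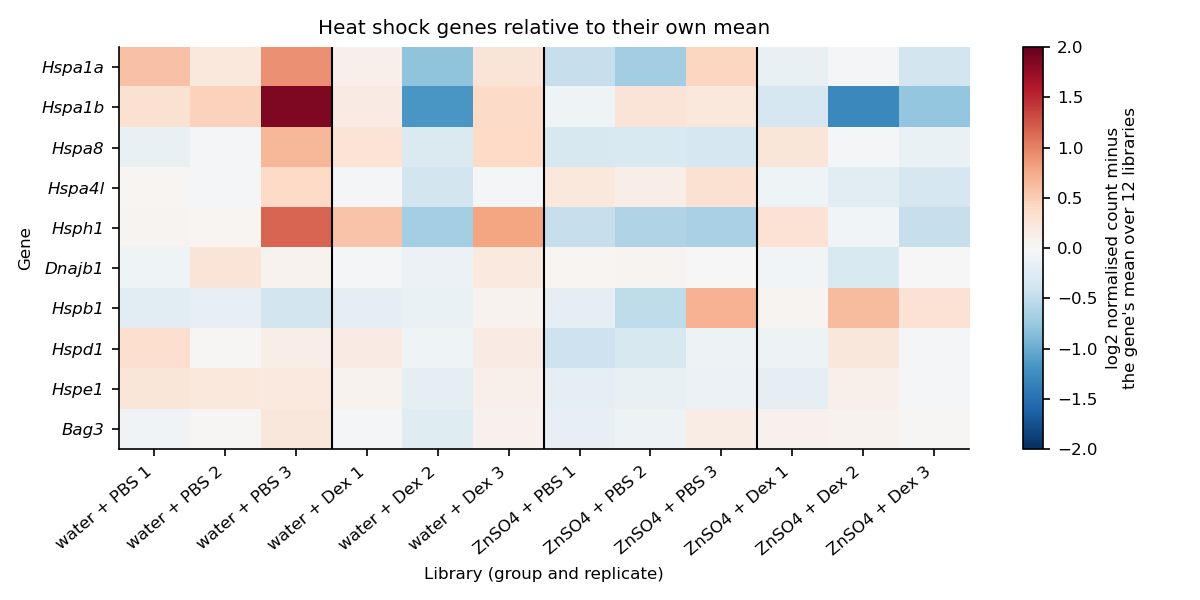
Log2 normalised count of each heat shock gene (y axis) minus its own mean over the 12 libraries (colour scale), by library (x axis). Water + PBS replicate 3 was high for Hspa1a, Hspa1b, Hspa8, Hspa4l and Hsph1, water + Dex replicate 2 was low for the same genes, and Hspb1 was highest in ZnSO4 + PBS replicate 3.

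**Figure D5:**
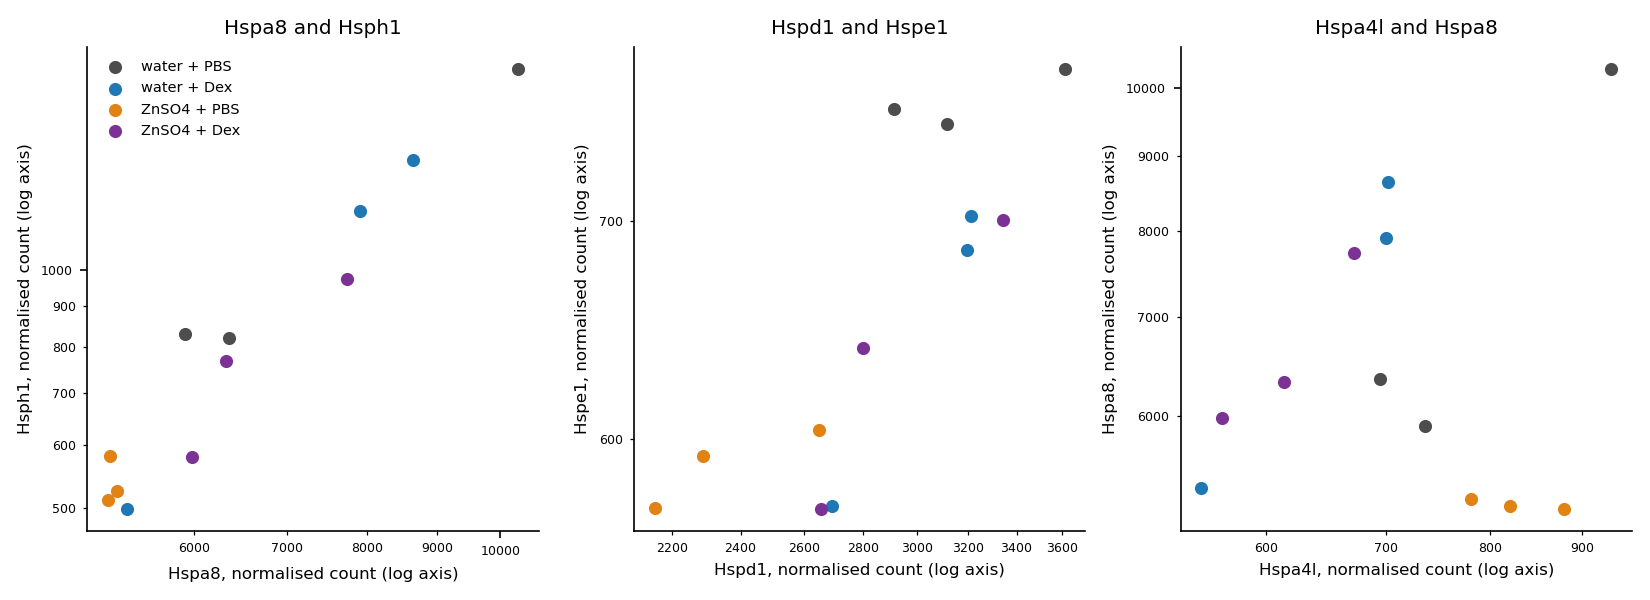
Normalised counts of 3 pairs of heat shock genes in the 12 libraries (log axes), coloured by group. Hspa8 and Hsph1 lay along 1 line over all groups (r = 0.97), as did Hspd1 and Hspe1 more loosely (r = 0.82), while for Hspa4l and Hspa8 the ZnSO4 + PBS libraries lay off the line of the others (r = 0.20).

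The genes most like each member over the 12 libraries, by Pearson r of log2 CPM among all tested genes, are given as a description. Hspa8 was followed most closely by Hsph1 (0.969), by Chordc1 (0.916), which encodes an HSP90 co-chaperone, and by Ppid (0.908), a cyclophilin that also binds HSP90. Hsph1 was followed by Hspa8 (0.969), Wfikkn2 (0.943) and Hsp90aa1 (0.939), the inducible cytosolic HSP90. Hspd1 was followed by Dsn1 (0.945), Cct8 (0.937), a subunit of the cytosolic chaperonin, and Fkbp11 (0.930). Hspe1 was closest to Cenpw (0.945), Pa2g4 (0.924) and G3bp1 (0.921). Hspb1 was closest to Dysf (0.943), 9530068E07Rik (0.934) and Tead2 (0.931). For Hspa1a the 3 were Cbx1 (0.903), Fkbp4 (0.873), which encodes an immunophilin of the GR complex, and Gm5510 (0.870). For Hspa1b they were Zfp322a (0.921), Hnrnpul2 (0.913) and Uspl1 (0.906), and for Hspa4l they were Zmat3 (0.910), Cpeb3 (0.910) and Rin1 (0.908). Dnajb1 was closest to Prr14 (0.907) and Bag3 to 1110065P20Rik (0.908).

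The rest of the chaperone network gave a background for the members. Of 45 tested other cytosolic chaperones, 2 fell and 0 rose with ZnSO4 in PBS mice by edgeR, a share close to the 4.66% of all tested genes. DESeq2 called 5 of them. The median LFC was -0.16, and 33 of the 45 were below 0, beside 52% of all tested genes. An unadjusted p under 0.05 was found for 18 of the 45 and for 3161 of the 15938 tested genes. Summed counts of the list were 50683 to 52445 in ZnSO4 + PBS and 55416 to 60556 in water + PBS, without overlap. The 2 called by edgeR were Hsp90aa1, at 1265 ± 47.9 normalised counts in ZnSO4 + PBS and 2042 ± 382.2 in water + PBS (LFC -0.69, SE 0.15, adjusted p = 0.023), and Cct3, a chaperonin subunit (LFC -0.38, SE 0.08, adjusted p = 0.018). With Dex in water mice 2 rose and 3 fell, also near the share of all tested genes (9.93%). The small heat shock genes Hspb8 (LFC 0.89, adjusted p = 0.028) and Hspb7 (LFC 1.05, adjusted p = 0.037) rose, while Bag4 (LFC -0.50, adjusted p = 0.0029), Hspa14 (LFC -0.32, adjusted p = 0.036) and Dnajc2 (LFC -0.31, adjusted p = 0.028) fell. In ZnSO4 mice Dex raised 5 and lowered 1 of the 45 (13.7% of all tested genes passed), and Bag4 was again the 1 that fell (LFC -0.68, adjusted p = 2.7e-04). The members of the same families, Bag3 and Hspb1, had LFCs of -0.12 and 0.16 in water mice, and neither passed.

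Other mitochondrial chaperones and proteases were described beside Hspd1 and Hspe1. Of 19 tested, 1 rose and 0 fell with ZnSO4 in PBS mice, the protease subunit Spg7 (LFC 0.32, adjusted p = 0.046), where 4.66% of all tested genes passed, and the median LFC was -0.07. With Dex in water mice 0 of 19 passed by edgeR and 0 by DESeq2, with 3 at an unadjusted p of 0.05. In ZnSO4 mice Dex raised Dnaja3, the mitochondrial J-domain protein (LFC 0.53, adjusted p = 0.0029), and lowered Grpel2, an exchange factor of mitochondrial HSP70 (LFC -0.34, adjusted p = 0.022). A list of 6 genes held the heat shock factors Hsf1, Hsf2, Hsf3, Hsf4 and Hsf5 and the gene of a heat shock factor binding protein, Hsbp1. Of these, 3 passed the filter on low counts. None of those was called by edgeR or DESeq2 in any of the 8 comparisons (at most 1 of 3 at an unadjusted p of 0.05). Summed levels of all 6, Hsbp1 included, were between 1163 and 1310 normalised counts over the 12 libraries.

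Of 13 tested further genes known to be bound by HSF1, 1 fell with ZnSO4 in PBS mice, again Hsp90aa1, where 4.66% of all tested genes passed. Of the chaperones of the endoplasmic reticulum, a larger share passed with ZnSO4 than of the heat shock genes. Of 15 tested, 11 fell with ZnSO4 in PBS mice and 5 in Dex mice by edgeR (4.66% and 4.37% of all tested genes passed). DESeq2 called 13 and 12. All 15 were below 0 in both, with 14 at an unadjusted p of 0.05 in each and median LFCs of -0.51 and -0.44. Averaged over PBS and Dex mice, ZnSO4 lowered 14 of the 15 by edgeR (12.8% of all tested genes passed). With Dex 0 passed in water and in ZnSO4 mice by edgeR and DESeq2, also at an unadjusted p of 0.05. Pdia4, a protein disulfide isomerase, fell with ZnSO4 in PBS mice by 0.60 on the log2 scale (adjusted p = 0.0093). The heat shock genes had median ZnSO4 LFCs of -0.41 in PBS mice, with water + PBS replicate 3 included, and -0.09 in Dex mice, with 1 and 0 of 10 called. The difference between the list of the endoplasmic reticulum and the heat shock genes was not tested.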

How the data were processed

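The authors made stranded single-end libraries from total RNA, mapped reads to mm10 with HISAT2 2.0.4 and counted reads per gene with featureCounts, without multimapping reads, and the deposited values are these raw counts. The annotation release and the strand setting of the counting are not given in the sources used here. GENCODE gene names and coordinates on GRCm38 were used. The members, gene lists and tests were chosen with earlier results of these data known. Genes were filtered with filterByExpr (minimum count 10), normalised by TMM and tested with edgeR 4.0.16 quasi-likelihood fits of 4 group means over all 12 libraries, with Benjamini-Hochberg adjustment over 15938 genes and a threshold of 0.05. The fit was tested on simulated data. LFC is on the log2 scale, and normalised counts were scaled to the mean TMM-adjusted depth of the libraries. Each edgeR p-value rests on a spread between mice estimated for the gene over all 4 groups of 3 mice and drawn toward that of other genes. An exact permutation test of 3 against 3 could not reach 0.05. All 10 members were described with counts in every library, up to 5 called genes per list by smallest p, and the 3 genes most like each member. Alternatives were DESeq2 1.42.0, other normalisations and filters, a replicate block, fits of the compared groups alone, an LFC cut-off of 0.8 and leaving out each library.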

Additional observations from a re-analysis of the deposited data

How the results depend on the processing

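The number of heat shock genes called depended on the processing in 5 of the 8 comparisons. For ZnSO4 in PBS mice (1 called), DESeq2 called 2, and 0 were called with upper-quartile normalisation, with all genes of at least 1 count, with the replicate block or with the LFC cut-off of 0.8. For Dex in ZnSO4 mice (1 called), upper-quartile normalisation and the cut-off each left 0. DESeq2 called 2 for ZnSO4 + Dex against water + PBS (1) and 2 for the averaged ZnSO4 effect (0), where keeping all genes gave 1, and the cut-off left 1 for the averaged Dex effect (2). Leaving out 1 library gave 0 to 2 calls for ZnSO4 in PBS mice, 0 to 1 for Dex in ZnSO4 mice, 0 to 3 for ZnSO4 + Dex against water + PBS, 0 to 2 for the averaged ZnSO4 effect and 1 to 2 for the averaged Dex effect. Dex in water mice, ZnSO4 in Dex mice and the interaction had 0 calls under each alternative tried here, although the paper's own DESeq2 test called Hspa1b for Dex in water mice. The labels number the replicates without saying whether the numbers pair mice. Same-numbered samples had a median residual correlation of -0.0557 over 18 pairs, against 0.0225 over 36 others. With 3 libraries per group, such values cannot exclude pairing. Apart from ZnSO4 in PBS mice, the replicate block changed no count of calls.

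Several LFCs near 0 changed sign. Under upper-quartile normalisation the LFC of Hspe1 for ZnSO4 in Dex mice was 0.011, and with the replicate block that of Hspa1a for Dex in ZnSO4 mice was 0.05. Leaving out 1 library moved ZnSO4 in PBS mice from -0.015 to 0.21 for Hspa4l, from -0.12 to 0.038 for Dnajb1 and from -0.10 to 0.56 for Hspb1. It moved Dex in water mice from -0.19 to 0.25 for Hspa8, from -0.45 to 0.31 for Hsph1, from -0.15 to 0.036 for Dnajb1 and from -0.15 to 0.0061 for Hspd1. ZnSO4 in Dex mice ranged from -0.36 to 0.11 for Hspa1a, from -0.30 to 0.014 for Hspa8, from -0.15 to 0.017 for Hspd1 and from -0.12 to 0.036 for Hspe1, and Dex in ZnSO4 mice from -0.23 to 0.39 for Hspa1a. The causes were not tested. With 11 to 41 raw counts of Hspa1a per library, small changes in that gene were not detectable at this depth. Ranks of the levels without division by length differed for 6 of the 10 members.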
